A study of Mus musculus with 8 samples.

Results

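Scavenger receptors take up modified lipoproteins, bacteria and debris from outside the cell, and efferocytosis receptors bind dying cells so that they can be engulfed. The 10 receptors described here are Msr1, Marco, Colec12, Cd36, Scarb1, Scarb2, Stab1, Timd4, Mertk and Axl. They were picked out by symbol, as the rows of the count table that carry these names, and all 10 were found among 24537 genes. The list of symbols was drawn up with earlier results of these data known. In tumours most of these proteins are best known from macrophages, where uptake of dead cells is coupled to handling of the lipid they carry. A dying cell exposes phosphatidylserine, which is bound directly by Timd4 and Stab1 or through bridging proteins by the kinases Mertk (Gas6 and protein S) and Axl (Gas6).

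RNA was sequenced from EpCAM+ cells that had been sorted by FACS, without culture, from pancreatic tumours of 8 FVB/NJ mice. Mice were 44 to 49 days old, and their tumours were dissected individually. The 4 tumours labelled KO were Lifr f/f, with both alleles of the LIF receptor gene floxed. Of the 4 tumours labelled WT, replicates 1 and 2 were Lifr f/+ and replicates 3 and 4 were Lifr +/+. Every mouse, those labelled WT included, also carried Trp53f/f, Rosa26LSL-Luc and Pdx1-Cre, so floxed Trp53 alleles were common to both groups. Since the Pdx1 promoter drives Cre in cells of the pancreatic epithelium, other lineages in these tumours carry undeleted alleles by design. The question put to the receptors was how their RNA level differed in sorted cells between tumours with and without a floxed Lifr pair.

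Between 14938875 and 22698340 counts fell in genes per tumour. Lifr itself went against the labels. It had 158, 205, 149.8 and 220 CPM (counts per 1000000, TMM-scaled) in the tumours labelled KO, against 126, 93.7, 71.8 and 99.6 CPM in those labelled WT. Its log2 fold change, labelled KO minus labelled WT, was 0.90 ± 0.19 (SE; adjusted p = 0.0121 by edgeR's quasi-likelihood test). Which exon is floxed is not given in the sources used here, and reads from other exons would not report the deletion, so all directions below rest on the labels. Markers of macrophages and monocytes moved with the labels too. Their 15 genes summed to between 20262 and 24682 CPM in the tumours labelled KO and to between 7744 and 13601 CPM in those labelled WT, with 11 called higher and 0 lower. The 13 epithelial markers summed to between 3582 and 5090.1 CPM in the tumours labelled KO and to between 6858 and 9099 CPM in those labelled WT, with 0 called higher and 11 lower. Epcam, the antigen of the sort, had a log2 fold change of -0.88 ± 0.13 (SE; adjusted p = 0.00519, edgeR). None of the markers found in the table was without a count in all 8 tumours. The part of these cell types in the receptor levels was not tested as a cause. In sorted bulk RNA, fewer cells of a type and less RNA per cell cannot be told apart.

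All 10 receptors passed the filter on low counts, with between 146 and 30185 counts in every tumour. Stab1, Cd36, Msr1 and Mertk rose in the tumours labelled KO, at an adjusted p under 0.05, and 0 receptors fell. That is 40% of the 10 called higher, where 21.8% of the 14728 genes tested were called, 11.1% higher and 10.8% lower. The 10 were chosen with earlier results of these data known. The groups did not overlap for 5 receptors, the 4 called and Timd4, and 25.5% of all genes tested had groups that did not overlap. The median log2 fold change of the 10 receptors was 0.50, beside 0.01 over all genes tested. It was above 0 for 7 receptors and below 0 for Scarb1, Axl and Marco.

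**Figure D1:**
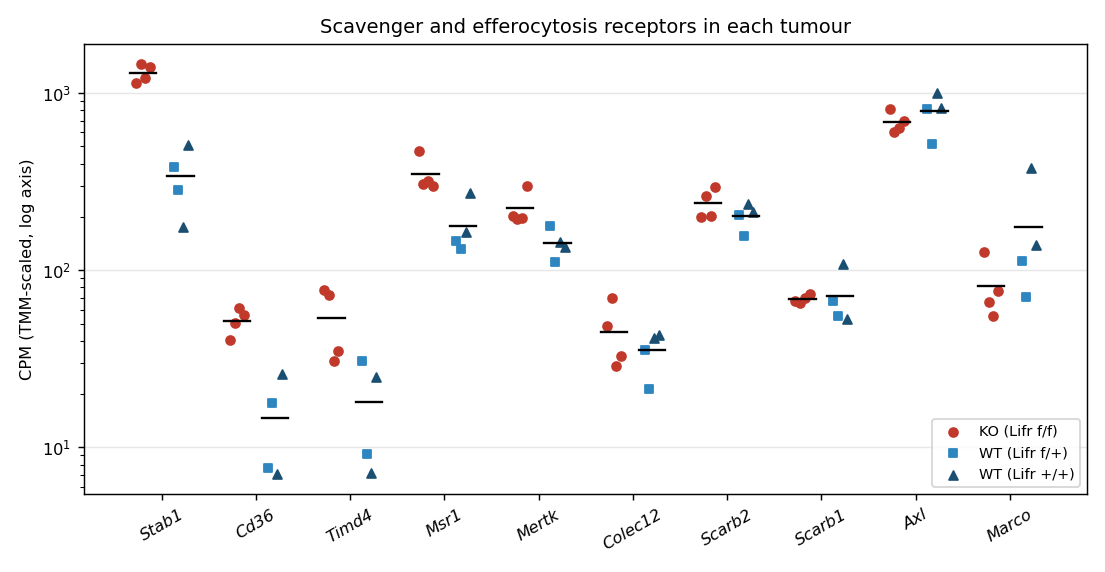
TMM-scaled CPM (log axis) of each receptor in each tumour, with the tumours labelled KO left of those labelled WT, the f/+ and +/+ tumours marked apart, and bars at the group means. For Stab1, Cd36, Timd4, Msr1 and Mertk each tumour labelled KO lies above every tumour labelled WT, for Timd4 only just.

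The receptors that recognise phosphatidylserine directly were examined first. Stab1 (stabilin-1; mm10 chr14:31139017-31168641, minus strand) is a large multiligand receptor of tissue macrophages and sinusoidal endothelium that takes up modified lipoprotein and matrix proteins as well as dying cells. Stab1 had 1146, 1452, 1215 and 1413 CPM in the tumours labelled KO, against 381, 284, 176 and 512 CPM in those labelled WT. The lowest tumour labelled KO was more than 2 times as high as the highest labelled WT. Stab1 averaged 1307 ± 149 CPM in the tumours labelled KO and 338 ± 143 CPM in those labelled WT (SD, n = 4 each), a 3.86-fold rise and a log2 fold change of 1.95 ± 0.30 (SE; 95% interval 1.28 to 2.62; adjusted p = 0.0051, edgeR). Stab1 was called with any single tumour left out, at log2 fold changes of 1.73 to 2.22. Beside it, the endothelial markers summed to between 35.3 and 49.8 CPM in the tumours labelled KO and to between 31.5 and 61.7 CPM in those labelled WT, with 0 of the 10 tested called. Stab2, not in that list, was low, at 1.49 CPM in the tumours labelled KO and 0.28 CPM in those labelled WT. Its groups did not overlap, but it was not called (log2 fold change 2.39, adjusted p = 0.0548, edgeR). The lymphatic endothelial list was split. Lyve1, a hyaluronan receptor shared with tissue macrophages, rose to 375 ± 47.6 CPM in the tumours labelled KO, against 91.1 ± 53.5 CPM in those labelled WT (n = 4 each; log2 fold change 2.04, adjusted p = 0.011, edgeR). Flt4, a receptor of lymphatic endothelium, fell by 1.20 on the log2 scale (adjusted p = 0.0136, edgeR). Prox1 of the same list was not called (log2 fold change -0.03, adjusted p = 0.968, edgeR).

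Timd4 (TIM-4; chr11:46810799-46844333, plus strand) tethers phosphatidylserine on dying cells and marks long-lived resident macrophages in several tissues. Timd4 had 77.4, 72.1, 30.8 and 35.2 CPM in the tumours labelled KO, against 30.6, 9.22, 7.17 and 24.9 CPM in those labelled WT. The tumours labelled KO fell into a high and a low pair, and the lowest of them was level with the highest labelled WT to within 1 CPM. Timd4 averaged 53.9 ± 24.3 CPM in the tumours labelled KO and 17.97 ± 11.6 CPM in those labelled WT (SD, n = 4 each), with a log2 fold change of 1.59 ± 0.51 (SE; 95% interval 0.42 to 2.76). It was not called (adjusted p = 0.0578, edgeR). It was called by DESeq2 (adjusted p = 0.0062), which called 14.3% of all genes higher, and by edgeR without WT replicate 1 (log2 fold change 1.98, adjusted p = 0.0445). In every other set of 7 tumours it was not called.

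The TAM kinases Mertk and Axl share the ligand Gas6, and Mertk also binds protein S. Mertk (chr2:128698997-128802188, plus strand) is the family member best known for clearance of apoptotic cells by macrophages at rest. Mertk had 203, 194, 198 and 299.7 CPM in the tumours labelled KO, against 179, 111, 145 and 135 CPM in those labelled WT. KO replicate 4 stood above the other 3, which lay within 10 CPM of each other and just above the highest tumour labelled WT. Mertk averaged 224 ± 50.6 CPM in the tumours labelled KO and 143 ± 27.9 CPM in those labelled WT (SD, n = 4 each), a 1.57-fold rise and a log2 fold change of 0.65 ± 0.18 (SE; 95% interval 0.24 to 1.07; adjusted p = 0.0354, edgeR). The call ended when KO replicate 1, 2, 3 or 4 was left out (adjusted p = 0.0623, 0.0571, 0.0504 and 0.0597, edgeR) and when WT replicate 2, 3 or 4 was (0.0711, 0.0774 and 0.0712). It also ended with library totals in place of TMM scaling (adjusted p = 0.0799, edgeR) and on the FPKM table (0.0708 with a pseudocount of 1, limma). Axl (chr7:25756500-25788733, minus strand) is the TAM kinase that is commonly induced by inflammation and is also expressed by carcinoma cells. Axl had 816, 601, 633 and 699 CPM in the tumours labelled KO, against 816, 514, 999 and 827 CPM in those labelled WT. The tumours labelled KO all lay inside the range of those labelled WT. Its log2 fold change was -0.20 ± 0.20 (SE; 95% interval -0.65 to 0.25; adjusted p = 0.511, edgeR).

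The class A receptors are trimeric proteins with a collagen-like stalk. Msr1 (SR-A; chr8:39603452-39642678, minus strand) takes up modified low-density lipoprotein and is abundant in macrophages. Msr1 had 469, 307, 319 and 298 CPM in the tumours labelled KO, against 147, 132, 165 and 272 CPM in those labelled WT. WT replicate 4 came within 26 CPM of the lowest tumour labelled KO, and KO replicate 1 stood above the rest. Msr1 averaged 348 ± 81.1 CPM in the tumours labelled KO and 179 ± 63.7 CPM in those labelled WT (SD, n = 4 each), a 1.95-fold rise and a log2 fold change of 0.96 ± 0.25 (SE; 95% interval 0.39 to 1.53; adjusted p = 0.0269, edgeR). Leaving out KO replicate 1 or 2 (adjusted p = 0.069 and 0.0536, edgeR) or WT replicate 1, 2 or 3 (0.0695, 0.0564 and 0.0699) ended the call.

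Marco (chr1:120474538-120505084, minus strand) binds bacteria and inhaled particles and is inducible in macrophages. Marco had 127, 65.9, 55.0 and 76.5 CPM in the tumours labelled KO, against 112, 70.9, 378 and 139 CPM in those labelled WT. WT replicate 3, a +/+ tumour, was more than 2 times as high as any other tumour, and the other 3 labelled WT lay within the range of those labelled KO or just above it. The log2 fold change was -1.11 ± 0.50 (SE; 95% interval -2.25 to 0.03; adjusted p = 0.148, edgeR), and -0.41 without WT replicate 3 (adjusted p = 0.437). Colec12 (chr18:9707648-9877995, plus strand), a collectin found on endothelium and stromal cells, had 48.7, 69.5, 28.9 and 32.8 CPM in the tumours labelled KO, against 35.3, 21.3, 41.6 and 42.9 CPM in those labelled WT. Its groups overlapped, with a log2 fold change of 0.35 ± 0.31 (SE; 95% interval -0.36 to 1.05; adjusted p = 0.456, edgeR).

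The class B receptors cross the membrane at both ends and move lipid. Cd36 (chr5:17781690-17835896, minus strand) takes up oxidised lipoprotein and long-chain fatty acids and binds thrombospondin and apoptotic cells. Cd36 had 40.2, 50.5, 60.8 and 55.6 CPM in the tumours labelled KO, against 7.61, 17.8, 7.08 and 25.8 CPM in those labelled WT. The groups did not overlap, and WT replicates 1 and 3 were lowest. Cd36 averaged 51.8 ± 8.79 CPM in the tumours labelled KO and 14.6 ± 8.97 CPM in those labelled WT (SD, n = 4 each), a 3.56-fold rise and a log2 fold change of 1.83 ± 0.40 (SE; 95% interval 0.92 to 2.75; adjusted p = 0.0147, edgeR). The call held with each single tumour left out, at log2 fold changes of 1.60 to 2.25. Fat cells and capillary endothelium also express Cd36. Of 7 adipocyte markers, Adipoq, Plin1, Lep and Cfd were too low to be tested, and 0 of the 3 tested were called. The sums were 85.9 to 114 CPM in the tumours labelled KO and 59.4 to 168 CPM in those labelled WT. Lpl averaged 90.5 CPM in the tumours labelled KO and 80.4 CPM in those labelled WT. Cidec (1.86 and 3.17 CPM) and Fabp4 (5.73 and 10.4 CPM, in the same order) went the other way. The part of fat cells in the Cd36 level was not tested.

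Scarb1 and Scarb2 were not called. Scarb1 (SR-BI; chr5:125277087-125341094, minus strand), which takes cholesteryl ester from high-density lipoprotein, had 67.2, 65.3, 69.4 and 73.4 CPM in the tumours labelled KO, against 67.0, 55.5, 109 and 53.1 CPM in those labelled WT. The tumours labelled KO lay inside the range of those labelled WT, and the log2 fold change was -0.05 ± 0.21 (SE; 95% interval -0.54 to 0.44; adjusted p = 0.89, edgeR). Its sign turned to 0.23 without WT replicate 3. Scarb2 (LIMP-2; chr5:92441311-92505657, minus strand), a lysosomal membrane protein that carries glucocerebrosidase, had 201, 262, 204 and 297 CPM in the tumours labelled KO, against 206, 157, 237 and 213 CPM in those labelled WT. Its log2 fold change was 0.24 ± 0.17 (SE; 95% interval -0.13 to 0.62; adjusted p = 0.324, edgeR).

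**Figure D2:**
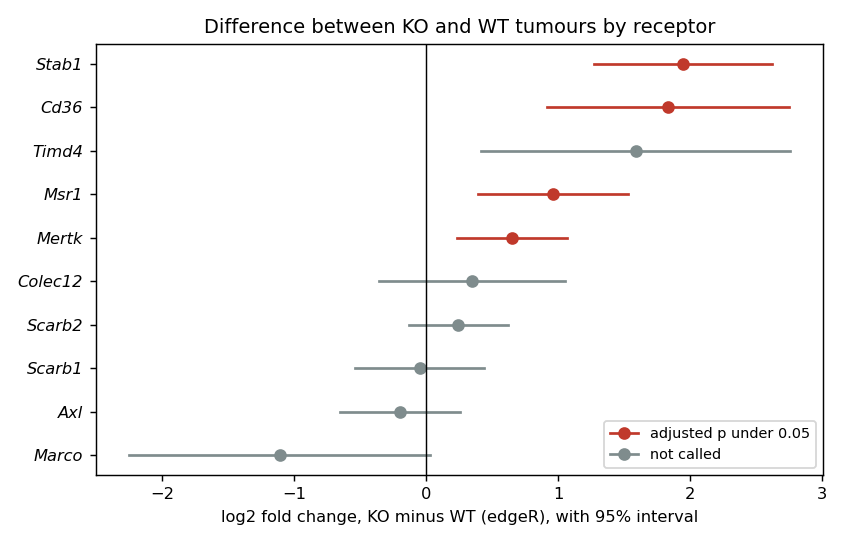
Log2 fold change of each receptor, labelled KO minus labelled WT, from edgeR over 8 tumours, with its 95% interval. Stab1, Cd36, Msr1 and Mertk, marked as called at an adjusted p under 0.05, have intervals above 0, as does Timd4 at 0.42 to 2.76, while the intervals of the other 5 include 0.

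The 250 bases before an annotated start are shown for Stab1, Cd36 and Mertk, the called receptors that have an entry in the RefSeq promoter table (GRCm38.p6, the assembly of mm10), so that the called genes can be compared at their starts. Capitals mark a match to the core of the PU.1 motif, GAGGAA, read on both strands (reverse complement TTCCTC). PU.1 is a transcription factor of the macrophage lineage. The Stab1 window is chr14:31168642-31168891, the Cd36 window chr5:17835897-17836146 (both minus strand) and the Mertk window chr2:128698665-128698914 (plus strand), each printed 5′ to 3′ on the strand of its gene. The annotated start of Mertk lies before that of the transcript used for counting. The Cd36 window lies before the start of the transcript used for counting, and the annotated gene reaches further upstream, to chr5:17888959. The Stab1 window also lies before the start of the transcript used for counting. Its last bases fall inside the annotated Stab1 gene, which begins at chr14:31168651.
Stab1: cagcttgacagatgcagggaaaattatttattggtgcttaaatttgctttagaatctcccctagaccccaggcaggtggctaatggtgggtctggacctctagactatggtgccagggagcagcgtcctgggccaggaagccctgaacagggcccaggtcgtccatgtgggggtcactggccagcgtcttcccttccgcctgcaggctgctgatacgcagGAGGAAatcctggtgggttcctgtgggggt
Cd36: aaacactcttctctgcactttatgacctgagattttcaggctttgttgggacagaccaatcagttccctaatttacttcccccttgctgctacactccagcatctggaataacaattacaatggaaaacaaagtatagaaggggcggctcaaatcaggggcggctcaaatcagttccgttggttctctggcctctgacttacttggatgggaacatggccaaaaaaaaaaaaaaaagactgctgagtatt
Mertk: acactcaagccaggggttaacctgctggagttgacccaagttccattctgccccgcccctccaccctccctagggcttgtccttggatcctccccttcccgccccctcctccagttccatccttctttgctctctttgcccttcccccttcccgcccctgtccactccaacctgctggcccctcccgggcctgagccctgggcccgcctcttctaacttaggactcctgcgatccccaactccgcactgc
The Stab1 window held GAGGAA 30 bases before the start of the transcript used for counting, and the Cd36 and Mertk windows held no match. Over 32851 promoter windows of the same length, 23.3% held this core; its letters can fall inside the STAT motif given next. Among the 7 receptors with an entry, Marco and Axl also held it, 146 and 130 bases before the start. The annotated Axl gene, on the minus strand, begins at chr7:25788924, upstream of that match. No window of the 7 held the STAT motif TTCNNNGAA, found in 7.02% of all windows, or the AP-1 motif TGANTCA, found in 6.75%. STAT3 is the factor that LIF receptor signalling is best known to activate. These matches describe letters in a window and nothing about binding.

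The tumours labelled WT held 2 genotypes, which were compared in a fit of all 3 Lifr genotypes. Between f/+ and +/+ tumours 0 of the 10 receptors were called by edgeR or by DESeq2, and 0.00654% of the 15284 genes tested were called by edgeR. At an unadjusted p under 0.05, 782 of those genes passed, Marco among them. About 1 in 20 genes pass that threshold where no gene differs, and 782 of 15284 is near that share. Marco averaged 91.7 CPM in f/+ tumours and 258 CPM in +/+ tumours (n = 2 each; log2 fold change -1.50 ± 0.53 SE, adjusted p = 0.893, edgeR), a mean that rests on WT replicate 3. Msr1 averaged 139 CPM in f/+ tumours and 218 CPM in +/+ tumours (log2 fold change -0.65 ± 0.29 SE, adjusted p = 0.962, edgeR). For Stab1 the same contrast gave -0.05 ± 0.43 (SE). With 2 tumours a genotype, only large differences could have been detected.

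Against each control genotype alone the f/f tumours gave these values, and both comparisons share those tumours. Against f/+ tumours, Stab1 (log2 fold change 1.98, adjusted p = 0.0233, edgeR), Cd36 (2.02, 0.0486) and Msr1 (1.32, 0.0214) were called higher, where 6.73% of genes tested were called higher. Against +/+ tumours, only Stab1 was called higher (1.93, adjusted p = 0.0402, edgeR), where 3.13% of genes were. Cd36 had a log2 fold change of 1.67 there (adjusted p = 0.0945) and Msr1 0.67 (adjusted p = 0.141, edgeR). Mertk was at 0.63 against f/+ and 0.68 against +/+ tumours (adjusted p = 0.128 and 0.124, edgeR). Marco was at -0.17 against f/+ and -1.67 against +/+ tumours (adjusted p = 0.831 and 0.0596, edgeR). Whether the f/f tumours differed more from one control genotype than from the other is the contrast between f/+ and +/+ given above, in which no receptor was called.

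The receptors were set beside the macrophage markers because both moved with the labels. With libraries scaled to the summed macrophage and monocyte markers, Stab1 was called higher in the tumours labelled KO, at a log2 fold change of 0.87 (adjusted p = 0.00444, edgeR). On that scale the median of all genes was -1.13, and 0.55% of genes were called higher and 84.4% lower. Cd36 was at 0.72 (adjusted p = 0.0776), Timd4 at 0.52 (0.201) and Msr1 at -0.12 (0.587, all edgeR), which turned the sign of Msr1. Mertk was at -0.47 (adjusted p = 0.0541, edgeR), also turned in sign, and Marco at -2.24 (adjusted p = 0.000357, edgeR). Lyz2 alone makes up a large part of the marker sum. Without it, in a scaling chosen after the data were seen, Stab1 was at 1.13 (adjusted p = 0.00318, edgeR) and Cd36 at 0.96 (0.0418), both called where 1.01% of all genes were called higher, while Msr1 was at 0.18 (0.496) and Mertk at -0.17 (0.415). Of the markers left in that sum, Ctss had the highest mean, at 2898 CPM in the tumours labelled KO and 2030 CPM in those labelled WT. Ctss was not called (log2 fold change 0.51 in the main fit). Relative to the summed macrophage markers, then, Stab1 was higher in the tumours labelled KO in both scalings, Cd36 was called in 1 of them, and Msr1 and Mertk in neither. Single markers of that list ranged in the main fit from Mpeg1 at 0.36 to Ms4a7 at 2.06 (log2 fold change). Ms4a7 and Ccr2 (2.02) lay above Stab1 (1.95), and the other markers lay below it.

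**Figure D3:**
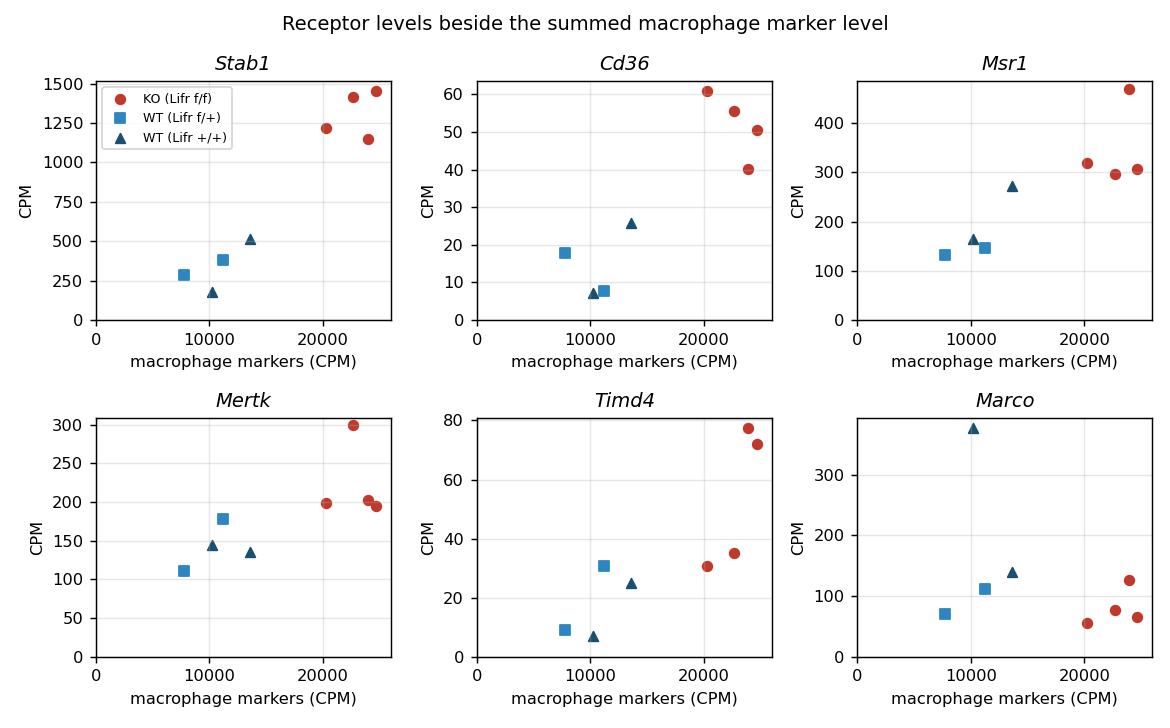
CPM of 6 receptors (y axes) beside the summed CPM of 15 macrophage and monocyte markers (x axes) in each of 8 tumours. The marker sum lies between 20262 and 24682 CPM in the tumours labelled KO and between 7744 and 13601 CPM in those labelled WT, and Marco is highest in WT replicate 3, whose marker sum is not the highest.

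Other cell types were counted the same way. Fibroblast markers summed to between 800.4 and 4321 CPM in the tumours labelled KO and to between 423 and 1564 CPM in those labelled WT, with 2 of 12 called higher. Acinar markers varied within groups, at 1458 to 33062 CPM in the tumours labelled KO and 385 to 6994 CPM in those labelled WT, with 0 of 11 called. With the acinar-richest tumour of each group left out (KO replicate 1, WT replicate 2), Stab1 (adjusted p = 0.0271) and Cd36 (0.0451) were called where 6.33% of all genes were called higher, and Msr1 (0.109) and Mertk (0.0998, all edgeR) were not. Dendritic cell markers had 2 of 9 called higher, neutrophil markers 1 of 5, and T and NK cell and B cell markers 0 of 6 and 0 of 5. Of all genes tested 11.1% were called higher, so such small counts tell little. Not tested were Ly6g, Mpo and Elane (neutrophil), Cd3d, Cd8b1, Trac and Ncr1 (T and NK cell) and Pax5 (B cell). Of 5 mesothelial markers 0 rose and 1 fell, Msln, by 2.07 on the log2 scale (adjusted p = 0.00466, edgeR), and 4 were not called.

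Levels of different receptors were compared per length, in the deposited FPKM. In the tumours labelled KO, Stab1 (86.3 ± 10.8 FPKM), Axl (73.1 ± 8.03) and Msr1 (72.2 ± 13.2 FPKM, SD, n = 4) stood first, with overlapping ranges. Mertk followed at 33.1 ± 7.51 FPKM, with a range below that of Msr1. Scarb2 at 26.8, Marco at 21.4, Scarb1 at 14.6, Timd4 at 12.9, Cd36 at 7.73 and Colec12 at 7.08 FPKM came next, each overlapping its neighbour. In the tumours labelled WT, Axl was highest at 94.7 ± 21.9 FPKM, with Marco at 52.1 ± 40.6 and Msr1 at 43.9 ± 14.4 FPKM (SD, n = 4). Marco was above Msr1 in 1 of the 4 tumours labelled WT, replicate 3, and averaged 32.2 ± 9.21 FPKM without it (SD, n = 3). Scarb2 (25.4 FPKM), Stab1 (25.2 FPKM) and Mertk (23.7 FPKM) did not differ beyond their spread there, and Scarb1 was at 17.1, Colec12 at 6.26, Timd4 at 4.85 and Cd36 at 2.46 FPKM. Stab1 had the highest mean of the 10 in the tumours labelled KO, and in those labelled WT its range lay below that of Axl. On this scale, which has no TMM factors, the groups did not overlap for 2 receptors, Stab1 and Cd36, and for 28.1% of the 15561 genes with a mean FPKM over 0.1. The transcript kept per gene differed between the tables for Msr1, Cd36, Scarb1 and Axl, and their place per length depends on it. With counts per kilobase of the other table, 8 of 10 receptors kept their place in the order of the mean over all tumours.

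**Figure D4:**
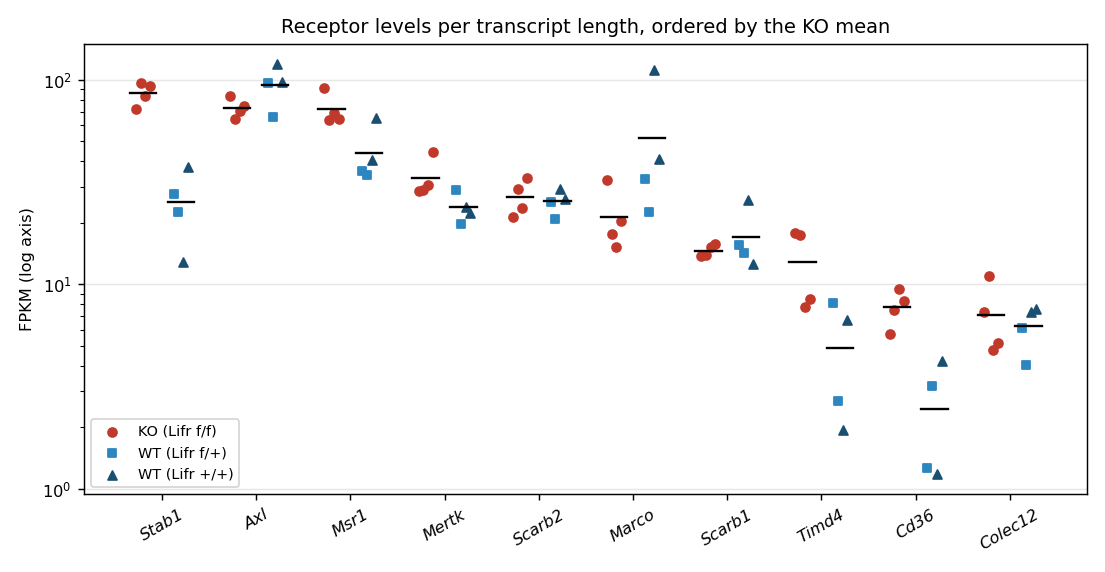
FPKM (log axis) of the 10 receptors in each tumour, ordered by the mean of the tumours labelled KO, which stand left of those labelled WT, with bars at the means. Stab1 averages 86.3 FPKM in the tumours labelled KO and 25.2 FPKM in those labelled WT, while Axl averages 73.1 and 94.7 FPKM.

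The 10 receptors together summed to 3107 ± 204 CPM in the tumours labelled KO and to 1966 ± 416 CPM in those labelled WT (SD, n = 4 each). Stab1 made up 42.1 ± 4.41% of that sum in the tumours labelled KO and 17.6 ± 6.74% in those labelled WT. Axl made up 22.1 ± 2.66% in the tumours labelled KO and 39.9 ± 3.42% in those labelled WT. These are shares of reads and not of molecules, since long transcripts give more reads.

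The genes whose pattern over the 8 tumours was most like that of the 3 receptors with the largest differences were found by the root mean square difference of centred log2 CPM. For Stab1 they were Tlr1 (0.13), Gas7 (0.14) and Cbr2 (0.18 log2 units). For Cd36 they were Susd3 (0.39), F13a1 (0.44) and Adora2b (0.45 log2 units). For Timd4 they were Ccl11 (0.26), Cd83 (0.35) and Fcna (0.38 log2 units). Ccl11 was at low levels, averaging 2.84 CPM in the tumours labelled KO and 0.807 CPM in those labelled WT.

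Other genes of scavenging and efferocytosis were counted in 8 lists, chosen with earlier results of these data known. The lists held 94 genes, of which 91 were tested. Of those, 33 rose (36.3%, beside 11.1% of all genes), 9 fell (9.89%, beside 10.8%) and 49 were not called, with a median log2 fold change of 0.30 beside 0.01. These counts move with the scaling as the receptors do. With libraries scaled to macrophage markers 1 was called higher and 59 lower, where 0.55% of all genes were called higher and 84.4% lower. Scaled to epithelial markers, where 74.5% of all genes were called higher, 73 were higher and 1 lower. Without both acinar-rich tumours 18 rose, where 6.33% of all genes did, and with only +/+ controls 8 rose, where 3.13% of all genes did. Single tumours left out gave between 21 and 33 higher and between 5 and 12 lower, where 6.14% to 11% of all genes were called higher and 5.59% to 10.6% lower.

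Bridging molecules link phosphatidylserine to receptors, and 6 of 9 rose and 1 fell (median log2 fold change 0.81). Gas6, the ligand of Mertk and Axl, rose to 462 ± 82.9 CPM in the tumours labelled KO, against 203 ± 56.1 CPM in those labelled WT (log2 fold change 1.18 ± 0.22 SE, adjusted p = 0.00829, edgeR). The complement components C1qb (1.37 ± 0.30) and C1qc (1.25 ± 0.29 SE on the log2 scale) rose too. Mfge8, which links dying cells to integrins, fell to 149 ± 23.0 CPM in the tumours labelled KO, against 249.9 ± 27.3 CPM in those labelled WT (log2 fold change -0.75 ± 0.13 SE, adjusted p = 0.00689, edgeR).

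Of the other scavenger receptors 4 of 16 rose and 1 fell (median 0.74). Mrc1, the mannose receptor, rose to 2618 ± 579 CPM in the tumours labelled KO, against 1438 ± 260.5 CPM in those labelled WT (log2 fold change 0.86, adjusted p = 0.0187, edgeR). Cd14, a co-receptor for lipopolysaccharide, rose by 0.71 and Cd68, a lysosomal glycoprotein of macrophages, by 0.77 on the log2 scale. Scara3, a class A relative known from the response to oxidative stress, fell by 0.53. Of the other efferocytosis receptors 3 of 11 rose and 1 fell (median -0.26). Cd300lb (1.53), Trem2 (1.19) and Cd300a (0.86 on the log2 scale), lipid-binding receptors of myeloid cells, rose. Adgrb1, a phosphatidylserine receptor upstream of Elmo1 and Dock1, fell by 1.998 on the log2 scale at low levels, of 0.417 ± 0.106 CPM in the tumours labelled KO and 1.68 ± 0.713 CPM in those labelled WT (adjusted p = 0.0107, edgeR). Several of these calls ended when 1 tumour was left out, by edgeR. They were Cd300a (without KO replicate 1 or 2 or WT replicate 1, 2 or 3; adjusted p up to 0.0784), Cd14 (KO replicate 1 or 2, WT replicate 1 or 3; up to 0.0594), Cd68 (KO replicate 3, WT replicate 1; up to 0.0518), Mrc1 (KO replicate 2, WT replicate 3; up to 0.0557) and Scara3 (KO replicate 1 or 2; up to 0.0604).

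Among find-me signals and their receptors 4 of 10 rose and 2 fell (median 0.37). Cx3cl1, a chemokine released by dying cells, fell to 27.9 ± 3.57 CPM in the tumours labelled KO, against 52.8 ± 3.69 CPM in those labelled WT (log2 fold change -0.92 ± 0.11 SE, adjusted p = 0.0044, edgeR). Its receptor Cx3cr1 rose to 141 ± 21.0 CPM in the tumours labelled KO, against 58.2 ± 17.9 CPM in those labelled WT (log2 fold change 1.27 ± 0.22 SE, adjusted p = 0.00693, edgeR). P2ry6, a nucleotide receptor of phagocytes, rose by 0.93 and Sphk1, which makes sphingosine 1-phosphate, fell by 0.93 on the log2 scale. Of the do-not-eat-me genes 1 of 7 rose and 1 fell (median 0.35). Cd24a, a surface glycoprotein of epithelial and other cells, fell by 0.73 and Pirb, an inhibitory receptor of myeloid and B cells, rose by 1.16 on the log2 scale.

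Downstream of the receptors, 5 of 14 genes of the engulfment machinery rose and 0 fell (median 0.20). Dock2, the Rac activator of blood cells, rose to 329 ± 33.7 CPM in the tumours labelled KO, against 142 ± 27.3 CPM in those labelled WT (log2 fold change 1.22 ± 0.15 SE, adjusted p = 0.0044, edgeR). Elmo2 (0.81), Vav1 (0.62) and Vav3 (1.25 on the log2 scale), which act with or as Rac activators, rose as well. For corpse digestion and lipid response 9 of 19 rose and 1 fell (median 0.49). Abca1, which exports cholesterol and is induced by efferocytosis in macrophages, rose to 534 ± 39.2 CPM in the tumours labelled KO, against 261 ± 38.9 CPM in those labelled WT (log2 fold change 1.04 ± 0.12 SE, adjusted p = 0.0044, edgeR). Lamp1 (0.79) and Lamp2 (0.75), lysosomal membrane proteins, and Rxra (0.63), the partner of lipid-sensing nuclear receptors, rose on the log2 scale. Of 5 genes of receptor shedding, Adam17, the protease that cleaves Mertk, rose by 0.46, while Timp3, its inhibitor, fell by 0.56 and Rhbdf1, its partner in transport, by 0.43 on the log2 scale. The Timp3 call ended without KO replicate 1 or WT replicate 1 or 4 (adjusted p up to 0.0674, edgeR) and the Rhbdf1 call without KO replicate 1 or 3 (up to 0.0529).

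**Figure D5:**
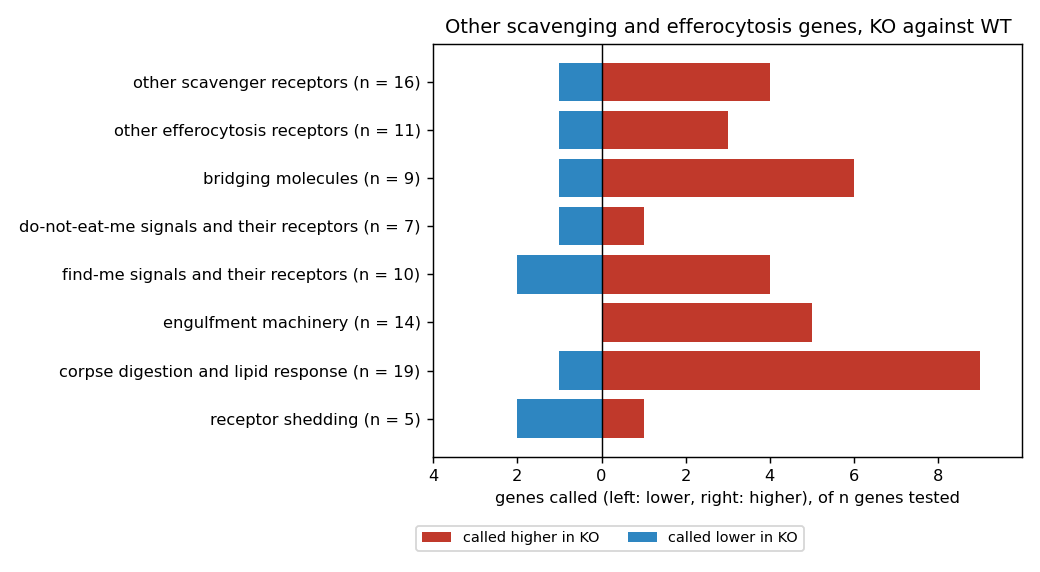
Number of genes called higher (right) and lower (left) in the tumours labelled KO, at an adjusted p under 0.05 by edgeR, in each of 8 lists with n genes tested. Bridging molecules have 6 of 9 and corpse digestion genes 9 of 19 called higher, and receptor shedding has 1 higher and 2 lower.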

How the data were processed

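Each of the 8 tumours gave 1 RNA-seq library of its sorted EpCAM+ cells, from RNA extracted with a NucleoSpin RNA II kit, per the labels. The labels state neither the library kit nor whether it kept strand. Tools named in the submitters' processing notes are STAR 2.4.0k, HOMER, FastQC 0.11.2 and edgeR 3.6.8, with the mm10 build and no role for any.

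The authors deposited raw counts and FPKM values. Per the file headers, counts are whole numbers of reads in exons of RefSeq transcripts, made by HOMER (plus strand only, 1 kept transcript for each gene). Per the file headers, the FPKM values come from the same program with a normalization setting of 1000000. Without strand in the libraries, reads of overlapping genes cannot be told apart. Counts in genes were 73.5% to 80.2% of the totals in the headers, and 17360 to 18000 genes had a count in a tumour. The tables hold 0 columns of other samples. Groups are the titles' labels, and replicate numbers are the order of listing and pair nothing. A further item of the genotype labels, shared by all 8 mice, is not reported here.

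The main test was edgeR 4.0.16's quasi-likelihood test in R 4.3.3 (glmQLFTest, not robust, TMM scaling, filterByExpr with minimum count 10 and minimum total 15), with Benjamini-Hochberg adjustment over 14728 genes, and a gene was called at an adjusted p under 0.05. The 3 genotypes were fitted together over 15284 genes. Intervals are 95% intervals of the log2 fold change. Exact two-sided permutation tests over the 70 assignments of the tumours cannot give a p below 0.0286. DESeq2 1.42.0 and, on log2(FPKM + pseudocount) of 1 or 0.1 for genes with a mean FPKM over 0.1, limma 3.58.1 were alternatives, as were other scalings, filters, controls and tumours left out. The edgeR step was tested on simulated data.

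The receptors and the lists were chosen with earlier results of these data known. Set for naming were the 10 receptors, Lifr and Epcam. From each pathway list up to 4 and from each marker list up to 3 called genes with the smallest p were added (the 1 with the smallest p where none was called). For the 3 receptors with the largest differences the 3 genes closest in pattern were added, predicted genes passed over. Not every marker gene so set is described. Given outside this rule are Lpl, Cidec, Mpeg1, Ms4a7, Ctss, Prox1, Stab2 and the markers too low to be tested.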

Additional observations from a re-analysis of the deposited data

Results flagged for a closer look

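In a group of 4 tumours, a value was singled out where its gap to the nearest other tumour, divided by the range of the group, exceeded Dixon's 95% critical value. Of 138 groups of values examined 7 did so, and chance gives about 1 in 20. Msr1 in KO replicate 1 was at 469 CPM, with the other tumours labelled KO at 298 to 319 CPM. Mertk in KO replicate 4 was at 299.7 CPM, with the others at 194 to 203 CPM, and at 44.3 FPKM, with the others at 28.7 to 30.6 FPKM. Cd300a, a myeloid lipid receptor, was also highest in KO replicate 4, at 156 CPM against 79.1 to 85.2 CPM. Adam17, the sheddase of Mertk, was at 195 CPM in KO replicate 2, with the others at 168 to 171 CPM. WT replicate 2 stood apart in the acinar gene Amy2b, at 27.2 CPM with the others labelled WT at 0.448 to 2.12 CPM, and in the lymphocyte gene Gzma, at 5.77 CPM with the others at 0.0589 to 0.26 CPM.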

How the results depend on the processing

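With libraries scaled to macrophage markers, log2 fold changes turned in sign for Msr1 (-0.12), Mertk (-0.47), Colec12 (-0.77), Scarb2 (-0.88) and Lifr (-0.24). Without Lyz2 in that scaling they did for Mertk (-0.17), Colec12 (-0.45) and Scarb2 (-0.58). Scaled to epithelial markers, Scarb1 (0.83) and Axl (0.64) turned positive, as with f/+ controls only (0.17 and 0.0504) and, for Scarb1, in the mean difference of log2 CPM (0.0126) and without WT replicate 3 (0.23). The 4 receptors called higher became 1 and those called lower 5 with macrophage scaling (2 and 4 without Lyz2, where 71.6% of all genes were lower), 9 higher with epithelial scaling, 2 without both acinar-rich tumours and 1 with +/+ controls only. Leaving out single tumours gave 2 to 4 higher and 0 lower, with 2 without KO replicate 1 or 2 or WT replicate 2 or 3, where 6.14% to 11% of all genes were called higher. Of the list genes, 33 higher became 1 (macrophage scaling), 3 (without Lyz2), 73 (epithelial scaling), 18 (without both acinar-rich tumours) and 8 (+/+ controls only), and between 21 and 33 with single tumours left out. Of all genes, 0.55%, 1.01%, 74.5%, 6.33% and 3.13% were called higher in the settings in brackets, in that order. The 9 lower became 19 with library totals, 14 and 15 on FPKM, 59, 46 and 1 in the 3 marker scalings and 4 with +/+ controls. With single tumours left out they were between 5 and 12, where 5.59% to 10.6% of all genes were called lower. The share of all genes called lower was 21.1% with library totals and 18% and 18.4% on FPKM. It was 84.4%, 71.6% and 0.638% in the marker scalings and 3.66% with +/+ controls, beside 10.8% in the main fit. The cause of these changes was not tested. Library totals in place of TMM moved the median of all genes to -0.17, and 22.5% of its calls were higher, against 50.7% with TMM. Other filters and DESeq2 size factors changed no call of a receptor. Over all genes, 3216 calls became 1755 without KO replicate 2, 2077 without WT replicate 3, 1892 without both acinar-rich tumours, 2036 with f/+ and 1038 with +/+ controls. No paired analysis was possible because replicate numbers are only the order of listing.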

Other observations

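Ratios of receptors within a library do not depend on how libraries are scaled, and 4 pairs of receptors are given as a description, chosen after their values were seen. Stab1 and Marco are of different classes, and each other pair is of the same class. The Stab1 count was 9.04 to 22.1 times that of Marco in the tumours labelled KO, against 0.465 to 4.01 times in those labelled WT. The Msr1 count was 3.70 to 5.80 times that of Marco in the tumours labelled KO, against 0.436 to 1.96 times in those labelled WT. The Cd36 count was 0.598 to 0.877 times that of Scarb1 in the tumours labelled KO, against 0.0649 to 0.486 times in those labelled WT. The Mertk count was 0.249 to 0.429 times that of Axl in the tumours labelled KO, against 0.145 to 0.219 times in those labelled WT. In all 4 ratios the groups did not overlap, in counts and in FPKM alike. Each pair sets a receptor called higher against one with a negative log2 fold change, so the choice of pairs favoured this separation. A ratio shows that the pair changed unequally, not which of the 2 moved.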
